A study of Mus musculus with 6 samples.

Results

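The 10 genes described here carry the insulin signal to glucose uptake and gene expression in fat: the insulin receptor gene *Insr*, the receptor substrates *Irs1* and *Irs2*, the kinase genes *Pik3r1* and *Akt2*, the transport genes *Tbc1d4*, *Slc2a4* and *Slc2a1*, the transcription factor gene *Foxo1* and the metabolic gene *Pck1*. They were taken by symbol from the deposited expression values of inguinal white adipose tissue (iWAT), a subcutaneous fat depot, and are 10 of the 55573 genes listed. All 10 were among the 16868 genes with enough reads to be tested. The RNA came from 3 mutant and 3 wild type (Wt) male mice, 3 months old, on regular chow and without treatment. The mutant mice were homozygous for a global knock-in that changes 2 lysines of thyroid hormone receptor alpha (THRA K283Q/K288R), a change made to reduce attachment of the small protein SUMO to the receptor. The Wt mice were bred in house, and both genotypes had the C57BL/6NTac background. Each library was made from total RNA of whole tissue of 1 mouse, so the receptor was mutated in every cell type and every organ that could act on the fat, and p-values measure the spread between mice. The question was whether these genes differed between the genotypes.

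Insulin binds its receptor on the adipocyte, which phosphorylates the IRS proteins. These recruit phosphatidylinositol 3-kinase (PI3K), which leads to activation of the kinase AKT2. AKT2 phosphorylates TBC1D4, which then stops holding back vesicles that carry the glucose transporter GLUT4, so that GLUT4 reaches the cell surface. AKT also phosphorylates FOXO1, which then leaves the nucleus. Phosphorylation and movement of these proteins are the acute steps of the pathway, and RNA levels do not show them.

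Each mouse had 19607423 to 24228381 reads on genes, and a value of 3 reads was 0.126 to 0.157 normalized CPM (reads relative to the library total, with a further factor of the authors for each mouse), a floor that covers counting error only. The 10 genes had between 331 reads (*Slc2a1*, in 1 mouse) and 66190 reads (*Pck1*, in 1 mouse). The adipocyte identity of the tissue was visible in *Adipoq*, the adiponectin gene, at 1332 to 2219 in the 6 mice, and 0 of 8 adipocyte markers were past a false discovery rate (FDR) of 0.05 between the genotypes, with 2 at an unadjusted p under 0.05 (limma). The sum of these markers was 23200 to 34145 in Wt mice and 21978 to 34507 in mutant mice. Other cell types differed between libraries. The summed level of 9 skeletal muscle markers was 10887 to 22984 in Wt mice and 18004 to 28010 in mutant mice. Of these 9, 8 had a log2 difference above 0, 4 were higher in every mutant mouse and 5 had an unadjusted p under 0.05 (limma). Only 1 of the 9, *Myh1*, was past the FDR, and it was higher in mutant mice. Mutant mouse 1 stood apart in lymphocyte markers, with a sum over 8 markers of 499 against 1015 to 1781 in the other 5 mice. The sum of 8 mesothelial markers was 31.6, 4.72 and 7.95 in Wt mice and 37.8 to 75.9 in mutant mice, with 7 of 8 past the FDR and higher. Most of the 31.6 in Wt mouse 1 was *Krt19*, at 28.5. Wt mouse 1 stood apart in 6 epithelial markers, with a sum of 75.8 against 3.79 to 23.1 in the other 5 mice. Of 5 brown or beige fat markers tested 1 was past the FDR, *Ucp1*, the gene of the uncoupling protein of brown fat, which was at 15.5, 7.39 and 15.3 in Wt mice and at 3.46, 3.23 and 3.51 in mutant mice, and 3 had an unadjusted p under 0.05 (limma). By log2 difference 3 of these 5 were below 0 and 2 above, *Cox7a1* at 0.30 and *Dio2* at 0.25. The sum over the 6 listed was 106 to 149.6 in Wt mice and 69.9 to 108 in mutant mice. Of 7 progenitor and fibroblast markers, 4 were higher in every mutant mouse and 0 were past the FDR, with 3 at an unadjusted p under 0.05 (limma). Of all genes tested, 8.11% were past the FDR and 24.2% had an unadjusted p under 0.05 (limma). The genotypes did not overlap in 30.6% of all genes, and 2517 of 16868 were higher in every mutant mouse. The part of these cell types in the results below was not tested, and in whole tissue fewer cells of a type and less RNA per cell cannot be told apart. *Thra* itself, whose knock-in changes codons and not dosage, was at 147, 128 and 117 in Wt mice and 170, 140 and 137 in mutant mice (log2 difference 0.19, adjusted p = 0.404, limma), so its level is no check of the genotype labels. *Thra* shares 263 exonic bases with the opposite-strand gene *Nr1d1*, which was at 1.99 times its level.

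No member of the 10 passed the test between the genotypes, and the 3 lowest relative to Wt were *Pck1*, *Irs2* and *Akt2*. The genotypes were compared with limma on log2(value + 0.5) over all 16868 genes, with the Benjamini-Hochberg adjustment and a threshold of 0.05 (FDR). The result was 0 of 10 genes past the threshold, against a background of 8.11% of all genes tested (5.5% higher and 2.61% lower in mutant mice). That is 928 genes higher and 440 lower, a split that was 1019 and 265 with library size as the only scaling. At an unadjusted p under 0.05 there were 3 of the 10 genes, against 24.2% of all genes. In the same 3 genes each mutant mouse was lower than each Wt mouse, against 30.6% of all genes without overlap in either direction and 15.7% lower in mutant mice. The share at p under 0.05 and the share without overlap in either direction are near the background. The 3 of 10 that were lower in every mutant mouse are above the 15.7%, and 0 were higher in every mutant mouse. With 10 genes this excess is a few genes, and it was not tested. The median log2 difference was -0.07 over the 10 genes and -0.05 over all genes tested, with 4 genes above 0 and 6 below. The quasi-likelihood test of edgeR on the recovered reads also called 0 of the 10, with 3 at an unadjusted p under 0.05, and DESeq2 called 2 of them, *Irs2* and *Pck1*. With 3 mice per genotype, the smallest p of an exact two-sided permutation test is 0.1.

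**Figure D1:**
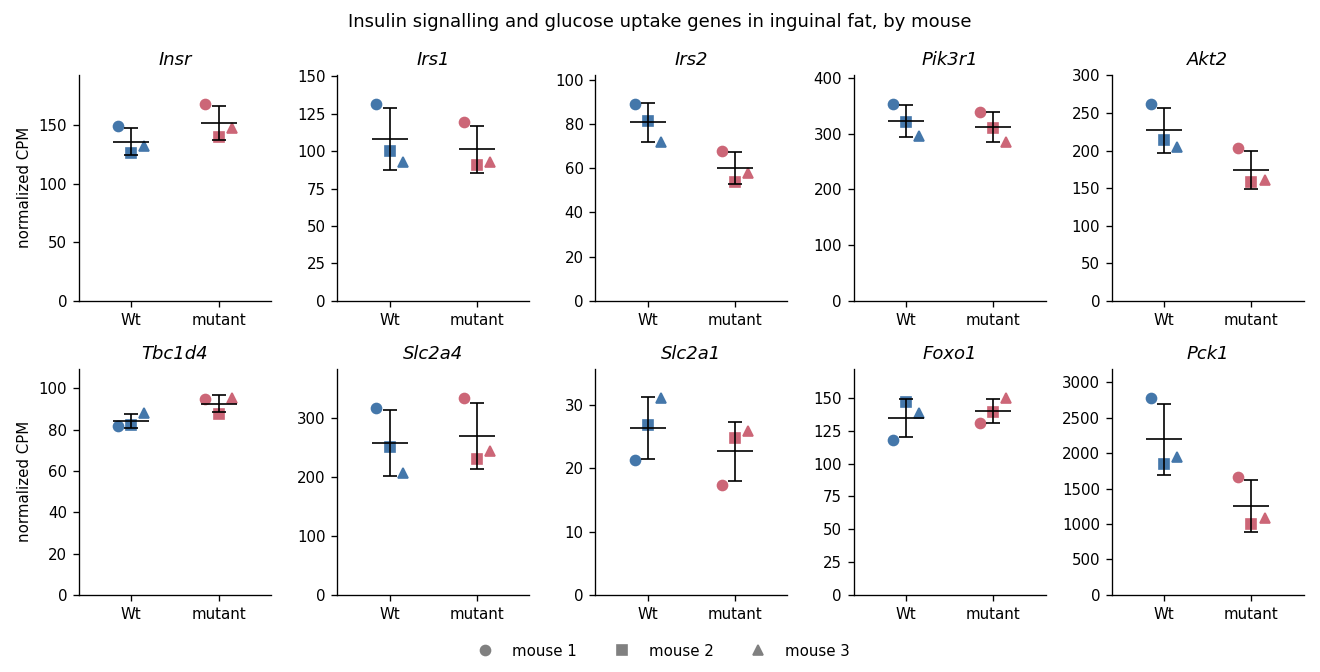
Normalized CPM of the 10 genes in each mouse, with 1 panel per gene, axes from 0, Wt on the left and mutant on the right, a bar at each genotype mean and a marker shape for each mouse number. The genotypes are separate in *Irs2*, *Akt2* and *Pck1*, where every mutant mouse lies below every Wt mouse, and overlap in the other 7 genes.

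*Pck1* encodes cytosolic phosphoenolpyruvate carboxykinase, whose transcription insulin lowers. In fat this enzyme acts in the route that makes glycerol phosphate for triglyceride from sources other than glucose. *Pck1* (ENSMUSG00000027513, GRCm38 chromosome 2, 173153048 to 173159273) had normalized CPM of 2773, 1852 and 1951 in Wt mice 1, 2 and 3. Mutant mice 1, 2 and 3 were at 1669, 996 and 1079. Every mutant mouse was lower than every Wt mouse, but mutant mouse 1 came near the lowest Wt mouse. The means were 2192 ± 506 (SD, n = 3) and 1248 ± 367 (SD, n = 3), a difference of -43.1%. The log2 difference of *Pck1* was -0.83 (standard error 0.27, 95% interval -1.48 to -0.17), the largest of the 10 genes in size, and was not past the FDR (adjusted p = 0.127, limma). Mouse 1 had the highest *Pck1* value in each genotype.

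*Irs2* and *Akt2* gave smaller differences of the same direction. *Irs2* encodes an adaptor that the insulin receptor phosphorylates, and its gene is a target of FOXO factors in liver. *Irs2* (ENSMUSG00000038894, chromosome 8, 10984681 to 11008458) was at 88.9, 81.5 and 71.7 in Wt mice and at 68.0, 54.0 and 57.9 in mutant mice. The genotypes did not overlap, with a gap between 68.0 and 71.7. The means of *Irs2*, Wt before mutant, were 80.7 ± 8.63 (SD, n = 3) and 59.9 ± 7.22 (SD, n = 3), a difference of -25.8% and of -0.43 on the log2 scale (standard error 0.12, 95% interval -0.72 to -0.14, adjusted p = 0.0906, limma). *Akt2* encodes the AKT kinase that insulin uses for glucose uptake in fat and muscle. *Akt2* (ENSMUSG00000004056, chromosome 7, 27591552 to 27640826) was at 262, 214 and 205 in Wt mice and at 203, 159 and 161 in mutant mice. Mutant mouse 1 was almost level with Wt mouse 3, so the genotypes were separate by a narrow gap. For *Akt2* the means were 227 ± 30.4 (SD, n = 3) and 174 ± 25.3 (SD, n = 3), a difference of -23.3% and of -0.38 on the log2 scale (standard error 0.14, 95% interval -0.72 to -0.04, adjusted p = 0.166, limma). The exact permutation p of *Pck1*, *Irs2* and *Akt2* was 0.1 for each, the smallest that 3 mice against 3 can give.

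The sequences before the start sites of these 3 genes are shown because they are the members whose genotypes were separate. A further reason is that the study examined binding of the transcription factor CREB to DNA. It did so in cultured preadipocytes at *Ccnd1*, *Ccnd2*, *Cdk2* and *Cul3*, and not at the 3 genes shown. The stretches are from the RefSeq promoter set on GRCm38.p6, which held entries for 8 of the 10 genes, and each is on the strand of the gene, 5′ to 3′. The *Pck1* stretch is at chr2:173152823-173153047 on the plus strand, and its last bases up to the RefSeq start, which lie inside the GENCODE gene, were left out. The *Akt2* stretch is at chr7:27591302-27591551 on the plus strand, and the *Irs2* stretch at chr8:11008930-11009179 on the minus strand. Capitals mark the core of the cAMP response element (CRE), TGACG, or its reverse complement CGTCA.
Pck1: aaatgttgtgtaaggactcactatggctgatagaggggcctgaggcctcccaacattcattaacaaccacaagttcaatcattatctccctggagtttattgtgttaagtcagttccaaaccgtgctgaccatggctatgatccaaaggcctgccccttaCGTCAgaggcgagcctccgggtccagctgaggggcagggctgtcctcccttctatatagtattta
Akt2: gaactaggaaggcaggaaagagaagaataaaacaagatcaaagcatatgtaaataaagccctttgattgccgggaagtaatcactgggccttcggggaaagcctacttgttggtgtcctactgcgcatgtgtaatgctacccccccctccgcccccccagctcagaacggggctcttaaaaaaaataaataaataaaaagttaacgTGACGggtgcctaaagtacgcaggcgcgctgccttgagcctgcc
Irs2: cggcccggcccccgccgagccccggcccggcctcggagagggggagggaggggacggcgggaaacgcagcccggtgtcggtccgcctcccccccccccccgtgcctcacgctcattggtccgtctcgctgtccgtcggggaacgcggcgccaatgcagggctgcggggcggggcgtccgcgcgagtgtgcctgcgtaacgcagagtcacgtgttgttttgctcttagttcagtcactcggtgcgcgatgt
The core was found on 1 strand or the other in *Pck1*, 90 bases before the RefSeq start, and in *Akt2*, 44 bases before it. The *Irs2* stretch held none, but the RefSeq start lies upstream of the GENCODE start of *Irs2*, and the bases between these starts were not searched. Over the 250 bases before the start, 5 of the 12 entries of the 8 genes had the core, against 17.8% of all 32851 promoter entries in the set. These 5 entries belong to *Pck1*, *Akt2*, *Irs1* and *Pik3r1*, and entries of 1 gene are not independent. The full element TGACGTCA, which contains the core on both strands, was in 0 of the 12 entries and in 1.55% of all promoters. The FoxO motif GTAAACA, searched on both strands, was in 0 of the 12 and in 3.17% of all promoters. Not every entry of *Akt2* and *Pik3r1* held the core. Whether the core goes with a genotype difference in expression was not tested. A match is a description of the letters only.

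The receptor and the other substrate did not separate the genotypes. *Insr* (ENSMUSG00000005534, chromosome 8, 3122061 to 3279617) was at 149, 127 and 133 in Wt mice and at 168, 140.4 and 148 in mutant mice. Its log2 difference was 0.16 (95% interval -0.09 to 0.41, adjusted p = 0.396, limma), and the lower mutant mice lay within the Wt range. *Irs1*, the substrate gene paired with *Irs2* in fat, (ENSMUSG00000055980, chromosome 1, 82233101 to 82291416) was at 131, 100.1 and 92.6 in Wt mice and at 119.5, 91.1 and 93.0 in mutant mice. The log2 difference of *Irs1* was -0.09 (95% interval -0.49 to 0.31, adjusted p = 0.764, limma), and the genotypes overlapped over most of their range. Within each mouse, the ratio of *Irs2* to *Irs1* values was 0.68, 0.82 and 0.78 in Wt mice and 0.57, 0.59 and 0.62 in mutant mice. This ratio was lower in every mutant mouse (difference of log2 ratios -0.34, exact permutation p = 0.1, 0.267 after adjustment over 8 ratios). The ratio of *Insr* to *Igf1r*, the receptor gene for insulin-like growth factor 1, overlapped (0.17, exact permutation p = 0.4).

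In the kinase relay, *Pik3r1* was close between the genotypes. *Pik3r1* encodes the p85 alpha regulatory subunit that binds PI3K to phosphorylated IRS proteins (ENSMUSG00000041417, chromosome 13, 101680563 to 101768217). It was at 353, 321 and 295 in Wt mice and at 339.9, 311 and 286 in mutant mice, with mouse 1 highest and mouse 3 lowest in both genotypes. Its log2 difference was -0.05 (95% interval -0.32 to 0.22, adjusted p = 0.805, limma), close to the median of all genes. Its ratio to *Pik3ca*, a catalytic subunit gene, overlapped between the genotypes (difference of log2 ratios -0.16, exact permutation p = 0.3), as did that of *Akt2* to *Akt1* (-0.13, exact permutation p = 0.5).

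**Figure D2:**
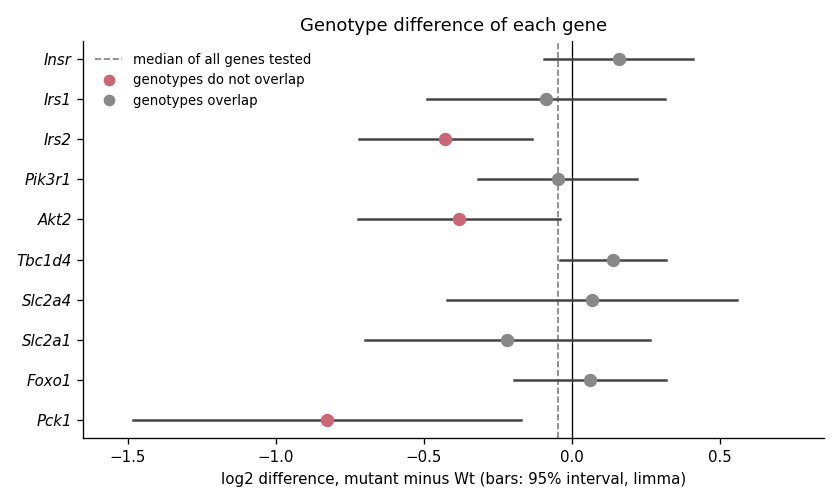
Log2 difference of mutant minus Wt for each of the 10 genes, as points with the 95% interval of limma, with a dashed line at the median of all genes tested. The intervals of *Pck1*, *Irs2* and *Akt2* lie below 0, and those of the other 7 genes include 0.

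The glucose transporters and the factor that holds GLUT4 back also overlapped. *Tbc1d4* (ENSMUSG00000033083, chromosome 14, 101442360 to 101609191), which encodes the RAB GTPase activating protein AS160, was at 81.8, 82.4 and 88.1 in Wt mice and at 94.7, 87.8 and 95.2 in mutant mice. The lowest mutant mouse, at 87.8, was just below the highest Wt mouse, with a log2 difference of 0.14 (95% interval -0.04 to 0.32, adjusted p = 0.313, limma). *Slc2a4*, the gene of GLUT4 (ENSMUSG00000018566, chromosome 11, 69942539 to 69948188), was at 317, 249.6 and 206 in Wt mice and at 333, 230.3 and 244 in mutant mice. Its log2 difference was 0.07 (95% interval -0.42 to 0.56, adjusted p = 0.858, limma), so an increase or decrease within that interval could not be told from 0 with these mice. Skeletal muscle also uses *Slc2a4*. The muscle marker sum was lowest in Wt mouse 3 and in mutant mouse 2, as *Slc2a4* was. In mutant mice 1 and 3 this sum was 27936 and 28010, and *Slc2a4* was at 333 and 244. The adipocyte marker sum was lowest in Wt mouse 3 and in mutant mouse 3 (21978, against 27416 in mutant mouse 2). Over the 6 mice the log2 values of *Slc2a4* and the mean of the adipocyte markers had a Pearson r of 0.85, given as a description. A high r with this mean was not particular to *Slc2a4*. It was 0.93 for *Pik3r1*, 0.84 for *Irs1*, -0.88 for *Slc2a1* and -0.82 for *Foxo1*. For the remaining members it lay between -0.16 (*Tbc1d4*) and 0.65 (*Insr*). No such r was computed for the muscle markers. The part of either cell type in the *Slc2a4* values was not tested. *Slc2a1*, the gene of GLUT1, a transporter of most cell types including endothelium (ENSMUSG00000028645, chromosome 4, 119108711 to 119137983), was at 21.2, 26.8 and 31.0 in Wt mice and at 17.3, 24.7 and 25.9 in mutant mice. The log2 difference of *Slc2a1* was -0.22 (95% interval -0.70 to 0.26, adjusted p = 0.524, limma), and mouse 1 was the lowest in both genotypes. The ratio of *Slc2a4* to *Slc2a1* in a mouse was 14.6, 9.15 and 6.56 in Wt mice and 18.7, 9.15 and 9.27 in mutant mice, overlapping (difference of log2 ratios 0.28, exact permutation p = 0.5).

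*Foxo1*, the transcription factor gene, overlapped as well. *Foxo1* (ENSMUSG00000044167, chromosome 3, 52268336 to 52353221) was at 118, 147 and 139 in Wt mice and at 131, 139 and 149.7 in mutant mice. Its log2 difference was 0.06 (95% interval -0.20 to 0.32, adjusted p = 0.750, limma). Relative to *Foxo3*, another FoxO gene, *Foxo1* was at a ratio of 2.24, 2.38 and 2.19 in Wt mice and of 2.70, 2.63 and 2.63 in mutant mice. This ratio was higher in every mutant mouse, by 0.23 on the log2 scale (exact permutation p = 0.1, 0.267 after adjustment over 8 ratios). The ratio of *Pck1* to *Pnpla2*, the gene of adipose triglyceride lipase, was 1.13, 0.999 and 1.11 in Wt mice and 0.96, 0.71 and 0.92 in mutant mice, lower in each mutant mouse by -0.33 on the log2 scale with the same p-values. The ratio of *Tbc1d4* to its relative *Tbc1d1* overlapped (-0.01, exact permutation p = 1). In all, 3 of 8 ratios were separate between the genotypes and none had an adjusted permutation p under 0.05, which 3 mice against 3 cannot reach. A ratio can show an unequal change within a pair of genes, but not which of them changed.

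**Figure D3:**
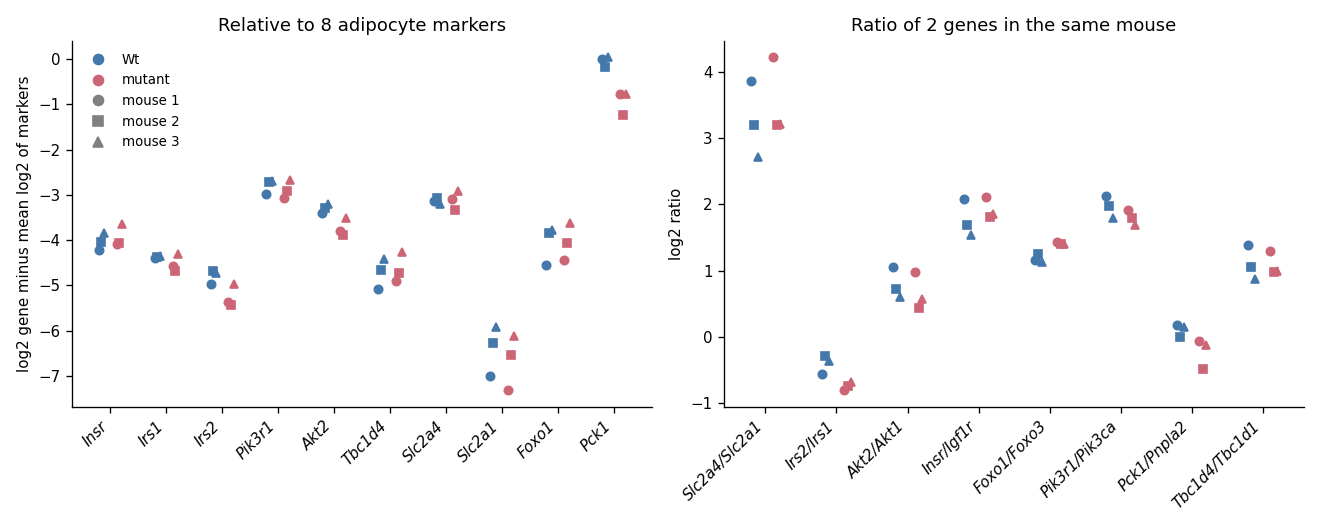
Values within each mouse on the log2 scale, by genotype and mouse number: the 8 ratios of paired genes in one panel and the 10 genes relative to the mean of 8 adipocyte markers in the other. Separate genotypes are seen for *Irs2*/*Irs1*, *Foxo1*/*Foxo3* and *Pck1*/*Pnpla2*, and for *Irs2*, *Akt2* and *Pck1* relative to the markers.

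Relative to the mean log2 value of the 8 adipocyte markers, which itself overlapped between the genotypes, *Pck1* differed by -0.87, *Irs2* by -0.47 and *Akt2* by -0.43 on the log2 scale. For these 3 genes every mutant mouse was lower, and the exact permutation p was 0.1, or 0.333 after adjustment over 10 genes. The other 7 genes overlapped. The markers themselves did not move together. By log2 difference 3 of the 8 were above 0 (*Lep* at 0.67, *Retn* at 0.59 and *Lpl* at 0.56) and 5 below. Of those below, *Cfd*, at -0.65, was lower in every mutant mouse. With *Adipoq* alone as the marker, *Pck1* was still separate (-0.75) and *Irs2* (-0.35) and *Akt2* (-0.30) overlapped.

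Per kilobase of exon, the 6-mouse mean of *Pck1* was 501.6 normalized CPM, which was 6.63 times that of *Slc2a4* at 75.7. *Pik3r1* followed at 31.5 and *Akt2* at 28.1, and these 2 did not separate, since *Pik3r1* was higher in 5 of 6 mice. *Foxo1* was at 15.8 and lay apart from the genes above and below it. *Tbc1d4* (11.5), *Irs1* (11.4), *Irs2* (11.1) and *Insr* (10.5) formed a group in which each range over the mice overlapped that of the next. *Slc2a1* was the lowest at 6.99, below *Insr* in all 6 mice. GLUT4 RNA was thus above GLUT1 RNA per exon length in each mouse.

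**Figure D4:**
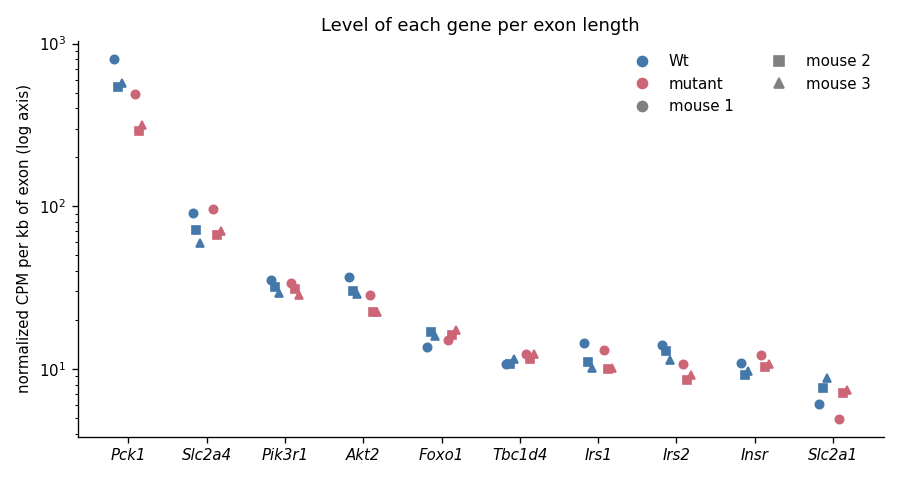
Normalized CPM per kilobase of exon on a log axis for the 10 genes in order of their mean, with a point per mouse, the genotype as colour and the mouse number as marker shape. *Pck1* lies above the other genes, *Slc2a4* is next, and the ranges of *Tbc1d4*, *Irs1*, *Irs2* and *Insr* run into each other.

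The order of mice recurred across the genes. Mouse 1 had the highest value of its genotype in both Wt and mutant mice for the same 7 genes (*Insr*, *Irs1*, *Irs2*, *Pik3r1*, *Akt2*, *Slc2a4* and *Pck1*), and the highest adipocyte marker sum and the lowest lymphocyte marker sum of its genotype. Across all genes tested, deviations of Wt mouse 1 and mutant mouse 1 from their genotype means correlated at 0.69, so likeness of these mice was not limited to the members. The share of all genes with this order was not counted. *Tbc1d4* and *Slc2a1* were highest in mouse 3 of both genotypes. Among 111 other genes of the pathway, the gene whose log2 values were most alike over the 6 mice was *Pck1* for *Akt2* and *Akt2* for *Pck1* (Pearson r = 0.99), *Rptor* for *Irs2* (0.97), *Rhoq* for *Slc2a4* (0.99) and *Rictor* for *Slc2a1* (0.997). It was *Tsc2* for *Irs1* (0.99), *Aqp7* for *Pik3r1* (0.98), *Ppp1r3d* for *Insr* (0.95), *Tsc1* for *Tbc1d4* (0.90) and *Sesn3* for *Foxo1* (0.85). These are the highest of many values over 6 mice that share genotype, tissue composition and scaling, and they are given as a description.

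In the wider pathway, 4 of 112 genes tested of 117 listed passed the FDR, 1 higher and 3 lower in mutant mice, against 8.11% of all genes. *Ppp1r3c* rose. It encodes a glycogen-targeting subunit (PTG) of protein phosphatase 1, which promotes glycogen synthesis. *Ppp1r3c* was at 48.0, 45.4 and 37.7 in Wt mice and at 149, 108 and 133 in mutant mice, 2.97 times the Wt mean (log2 difference 1.55, standard error 0.15, adjusted p = 0.0028, limma). Even the lowest mutant mouse was above 2 times the highest Wt mouse. *Srebf1*, the gene of the lipogenic factor SREBP1 that insulin induces, fell, from 448, 343 and 339 in Wt mice to 251, 196 and 199 in mutant mice (log2 difference -0.80, adjusted p = 0.0304, limma). *Sh2b1*, whose product is an adaptor of the insulin and leptin pathways, fell from 79.2, 83.7 and 87.0 to 51.7, 54.0 and 66.2 (log2 difference -0.54, adjusted p = 0.0346, limma). *Phlpp2*, the gene of a phosphatase that removes a phosphate from AKT, fell from 33.2, 31.5 and 31.4 to 23.8, 24.0 and 26.1 (log2 difference -0.37, adjusted p = 0.0422, limma). The genotypes did not overlap in any of these 4 genes. *Ppp1r3c* passed with each mouse left out in turn, whereas *Srebf1* passed in 1 of the 6 fits, without mutant mouse 1, *Sh2b1* in 1, without mutant mouse 3, and *Phlpp2* in 0, with adjusted p from 0.0200 to 0.159 over these fits for the 3 genes. The log2 differences stayed at -0.91 to -0.67 for *Srebf1*, -0.65 to -0.47 for *Sh2b1* and -0.41 to -0.35 for *Phlpp2*.

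By list, 0 of 16 PI3K and Akt kinases, 0 of 18 genes of GLUT4 vesicle traffic, 0 of 10 glucose transporters, 0 of 17 FoxO factors and textbook targets and 0 of 7 genes of glycerol phosphate supply passed. In these 5 lists 2, 4, 4, 4 and 1 genes had an unadjusted p under 0.05, which 24.2% of all genes had. Of 13 receptors and adaptors 1 was lower (*Sh2b1*), and of 12 inhibitors of receptor signalling 1 was lower (*Phlpp2*). Of 17 genes of glycogen and the first glucose steps 1 was higher (*Ppp1r3c*), and of 5 lipogenic factors 1 was lower (*Srebf1*). In that order, 4, 5, 7 and 1 genes of these lists had an unadjusted p under 0.05 (limma). List medians ran from -0.31 for the inhibitors, with 10 of 12 below 0, to 0.09 for the glycogen genes, with 12 of 17 above 0. Of all 16868 genes tested, 9536 were below 0 and 7332 above. Not past the threshold, *Ppp1r3b*, another glycogen-targeting subunit gene, differed by 0.995 (adjusted p = 0.0597, limma). Some members are also in these lists. Leaving out genes that share exonic bases with an opposite-strand gene of 10 or more times their level left 15676 genes, of which 344 (2.19%) passed. *Ppp1r3c* was then the only pathway gene past the FDR, and again 0 of the 10 members passed. *Srebf1*, *Sh2b1* and *Phlpp2* were not among the genes left out, and their log2 differences were the same (-0.80, -0.54 and -0.37). Their adjusted p became 0.0639, 0.0678 and 0.0740 (limma).

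**Figure D5:**
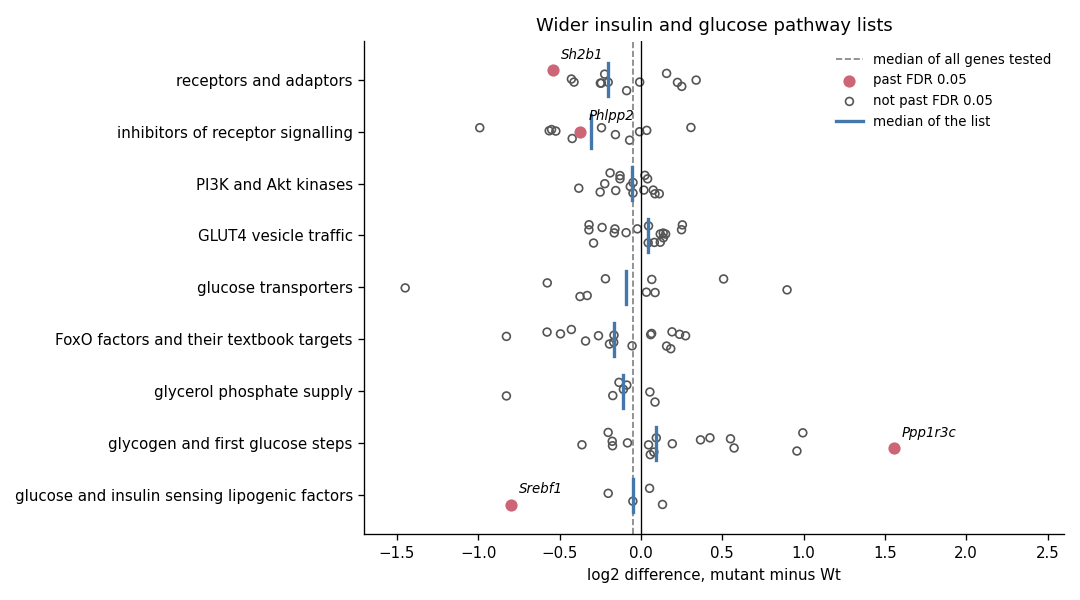
Log2 difference of mutant minus Wt for each tested gene of the 9 pathway lists, with a filled point for genes past the FDR of 0.05, a bar at each list's median and a dashed line at the median of all genes tested. *Ppp1r3c* lies to the right at 1.55, and *Srebf1*, *Sh2b1* and *Phlpp2* to the left of 0.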

How the data were processed

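Total RNA of inguinal fat from 3 mutant and 3 Wt mice was sequenced, 1 library per mouse. As deposited by the authors, each gene has a normalized signal, CPM multiplied by a factor that differs between mice. Per the submitters' processing notes, Bowtie2 2.1.0, RSEM 1.2.15, edgeR and mm10 were used, without role or order, and use of strand in counting is not given in the sources used here. No columns of the authors' own comparisons were in these values.

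Whole reads were recovered from 100.0% of the values in each mouse (tolerance 0.01 reads). Reads differed between mice of a genotype beyond sampling noise (chi-square divided by its degrees of freedom, 19.3 to 64.9), so all 6 libraries were kept as separate samples. Genes kept by filterByExpr of edgeR 4.0.16 were tested with limma 3.58.1 (trend, R 4.3.3) on log2(value + 0.5), at an FDR of 0.05. A difference on this scale understates that of low genes. The quasi-likelihood test of edgeR on the reads called 1168 genes, against 1368 for limma. DESeq2 1.42.0 was an alternative, as were other filters, scalings, pseudocounts, a block on mouse number and the omission of single mice. Exact two-sided permutation tests served for ratios. Python 3.11.15, pandas 2.3.3, SciPy 1.17.1 and Matplotlib 3.10.9 were used.

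The members and lists were chosen with earlier results of these data known. Genes named are the 10 members, *Thra*, partners of the 8 ratios, the pathway gene most alike to each member, and pathway genes past the FDR without overlap. *Ppp1r3b* and the marker genes given by name were chosen after their values were seen. Coordinates are from GENCODE M21 on GRCm38, which held 55480 (99.8%) of the identifiers. Overlapping genes on the other strand share exonic bases with *Irs1*, *Irs2*, *Foxo1* and *Slc2a1*, each at 0.0426 or less of the member's level.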

Additional observations from a re-analysis of the deposited data

How the results depend on the processing

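The count of 0 members past the threshold became 1 at an FDR of 0.1 (*Irs2*), 1 with library size as the only scaling (*Irs2*), 2 with DESeq2 (*Irs2*, adjusted p = 0.0321, and *Pck1*, adjusted p = 0.0122) and 3 with the replicate block (*Irs2*, *Akt2* and *Pck1*). It was 0 in every fit that left out 1 mouse. The 4 pathway genes became 15 at an FDR of 0.1, 2 with edgeR, 14 with DESeq2, 8 with library size only, 36 with the replicate block, 1 without genes under an abundant opposite-strand gene (chosen after seeing the data, with the log2 differences of *Srebf1*, *Sh2b1* and *Phlpp2* as before) and 1 to 2 with 1 mouse left out. Over all genes, 1368 became 2263 at an FDR of 0.1, 2118 with DESeq2, 4063 with the block (1733 higher, 2330 lower), 344 without the opposite-strand genes (177 and 167) and 554 to 1005 with 1 mouse left out.

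The mouse numbers share no stated pairing. Deviations of same-numbered mice from the genotype means correlated at 0.69, 0.06 and 0.56 across genes, and not every mouse correlated best with its own number.

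Over all alternatives the log2 difference of *Irs2* was -0.52 to -0.36 (adjusted p = 0.0194 to 0.248), of *Akt2* -0.50 to -0.28 (0.0108 to 0.361) and of *Pck1* -1.06 to -0.65 (0.00656 to 0.322). With 1 mouse left out, small differences changed sign. Without Wt mouse 1, that of *Irs1* was 0.061, of *Pik3r1* 0.016 and of *Foxo1* -0.030, the ratio of *Tbc1d4* to *Tbc1d1* 0.13, and the values relative to the adipocyte markers -0.089 for *Tbc1d4* and -0.24 for *Foxo1*. Without Wt mouse 3, *Slc2a4* was at -0.082, or -0.014 relative to the markers. Without mutant mouse 1, *Slc2a4* was at -0.096, its ratio to *Slc2a1* at -0.055 and *Slc2a1* relative to the markers at 0.063. Without mutant mouse 2, the ratio of *Tbc1d4* to *Tbc1d1* was 0.039. Without mutant mouse 3, *Pik3r1* was at 0.012, that ratio at 0.034, and relative to the markers *Insr* was at -0.034, *Tbc1d4* at -0.094, *Slc2a4* at -0.084 and *Foxo1* at -0.20. Over these fits *Irs1* ranged from -0.21 to 0.061, *Pik3r1* from -0.11 to 0.016, *Slc2a4* from -0.096 to 0.23, *Foxo1* from -0.030 to 0.12, the *Tbc1d4* to *Tbc1d1* ratio from -0.13 to 0.13 and the *Slc2a4* to *Slc2a1* ratio from -0.055 to 0.59. Relative to the markers the ranges were -0.034 to 0.21 for *Insr*, -0.094 to 0.24 for *Tbc1d4*, -0.084 to 0.13 for *Slc2a4*, -0.57 to 0.063 for *Slc2a1* and -0.24 to 0.21 for *Foxo1*. With *Adipoq* alone, *Pik3r1* was at 0.032, and 1 gene in place of 3 was separate. The 3 separate ratios ranged from 3 to 5 with 1 mouse left out, 5 without Wt mouse 1. The cause of these changes was not tested. *Slc2a1*, with 331 to 737 reads, had the least depth of the members.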
